A study of Arabidopsis thaliana with 32 samples.

Results

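The genes described here are the 3 CBF transcription factor genes of Arabidopsis thaliana (CBF1, AT4G25490; CBF2, AT4G25470; CBF3, AT4G25480) and 7 cold-regulated genes (COR15A, AT2G42540; COR15B, AT2G42530; COR47, AT1G20440; ERD10, AT1G20450; RD29A, AT5G52310; KIN1, AT5G15960; KIN2, AT5G15970). They are 10 of 32434 loci named in the data. Each was taken by its locus identifier, and its level is the sum, in each library, of the FPKM (sequenced fragments counted per unit of transcript length and per unit of the library's mapped fragments) of all annotated transcripts of that locus. The rule itself uses no measured value.

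Both light regimes were compared in whole seedlings of the Col-0 accession. All plants grew on plates for 8 days in long days of 16 h light and 8 h dark at 24 °C. They then either spent 2 further days in continuous light or stayed in long days for the same time, per the labels' protocols, although the series' overall design gives 1 day. Seeds of every group were stratified in the cold before sowing, and no cold treatment of the seedlings is described. A single library was made at each 3 h step between 2 h and 47 h, so there are 16 continuous-light libraries and 16 long-day libraries. Time is counted from lights-on in long days and from subjective dawn in continuous light. The hours 17 to 23 and 41 to 47 were dark in long days and lit in continuous light, where they are called the subjective night.

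CBF proteins belong to the AP2/ERF family. In cold plants they are induced rapidly and bind the CRT/DRE element in the promoters of COR genes, which raises freezing tolerance. Even in warm plants the circadian clock is known to restrict CBF expression to part of the day, through morning MYB factors and pseudo-response regulators. The COR genes encode hydrophilic proteins, and several of these protect membranes or proteins during dehydration. Several of the genes also respond to abscisic acid (ABA) and drought.

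All 3 CBF genes lie side by side on the minus strand of chromosome 4, with CBF2 at chr4:13015250-13016235, CBF3 (named DREB1A in RefSeq) at chr4:13018010-13019400 and CBF1 at chr4:13021780-13022996 (TAIR10.1). Each is annotated with 1 exon. Most of the COR genes are tandem pairs too. COR15B (chr2:17708593-17710433) lies next to COR15A (chr2:17710441-17712330) on the minus strand, and COR47 (chr1:7084409-7086873) next to ERD10 (chr1:7087903-7089606), also on the minus strand. KIN1 (chr5:5209717-5210826) lies next to KIN2 (chr5:5211719-5212743) on the plus strand, and RD29A (named LTI78 in RefSeq, chr5:21240717-21243644, plus strand) follows its relative RD29B. This order may bear on the measurements, because reads of near-identical neighbours can be given to either copy. How the reads of these genes were assigned was not tested. The KIN1 and KIN2 coding sequences differ at 10 of 201 bases, an identity of 95.0%. They are shown because these 10 bases, in capitals, are all that tells the 2 reading frames apart. The identity was 85.0% to 86.7% among the CBF genes, 82.6% between COR15A and COR15B and 73.8% between COR47 and ERD10.
KIN1 coding sequence: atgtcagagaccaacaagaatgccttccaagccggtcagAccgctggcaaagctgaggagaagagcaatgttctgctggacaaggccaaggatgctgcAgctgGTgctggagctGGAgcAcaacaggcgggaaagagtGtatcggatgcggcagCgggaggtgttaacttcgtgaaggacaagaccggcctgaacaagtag
KIN2 coding sequence: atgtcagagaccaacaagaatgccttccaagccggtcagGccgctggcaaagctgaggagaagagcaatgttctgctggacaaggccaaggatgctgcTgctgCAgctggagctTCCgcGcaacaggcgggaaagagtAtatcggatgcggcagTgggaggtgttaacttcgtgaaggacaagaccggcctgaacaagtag

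The 300 bases before the annotated start were searched on both strands for CCGAC (the CRT/DRE core bound by CBF proteins), ACGTG (the core of the ABA-responsive element), AAAATATCT (the evening element) and AAAAATCT (the CCA1-binding site). CCGAC was found in 3 of the 10 windows, with 3 matches in RD29A, 2 in COR15A and 1 in COR15B, and in 13.9% of 27443 such windows of the annotation. The COR15B window, chr2:17710434-17710733, lies almost wholly within the annotated COR15A gene. Bases outside the windows were not searched, so a window without a match does not show that a gene lacks the element. ACGTG was found in 5 windows (CBF2, CBF3, COR15A, KIN1 and KIN2) and in 25.6% of all windows. A match to CACGTG counts on both strands. None of the 10 windows held AAAATATCT or AAAAATCT, which were present in 2.79% and 7.94% of all windows. The windows given are those of the 2 genes with several CCGAC matches and that of CBF3, the factor gene with the highest single values. Capitals mark CCGAC or its reverse complement and ACGTG or its reverse complement.
COR15A, chr2:17712331-17712630, minus strand: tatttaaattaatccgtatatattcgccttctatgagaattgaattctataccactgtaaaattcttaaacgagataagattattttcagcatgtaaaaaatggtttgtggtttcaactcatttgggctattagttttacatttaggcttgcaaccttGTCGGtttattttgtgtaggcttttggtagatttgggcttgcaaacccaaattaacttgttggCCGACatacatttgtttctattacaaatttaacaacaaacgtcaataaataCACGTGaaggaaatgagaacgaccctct
RD29A, chr5:21240417-21240716, plus strand: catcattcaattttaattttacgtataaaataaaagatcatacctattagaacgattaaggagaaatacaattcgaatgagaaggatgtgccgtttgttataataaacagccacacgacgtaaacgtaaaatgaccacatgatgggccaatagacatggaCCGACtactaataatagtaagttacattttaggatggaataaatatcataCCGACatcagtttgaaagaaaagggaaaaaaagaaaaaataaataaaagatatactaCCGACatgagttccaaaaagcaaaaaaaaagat
CBF3, chr4:13019401-13019700, minus strand: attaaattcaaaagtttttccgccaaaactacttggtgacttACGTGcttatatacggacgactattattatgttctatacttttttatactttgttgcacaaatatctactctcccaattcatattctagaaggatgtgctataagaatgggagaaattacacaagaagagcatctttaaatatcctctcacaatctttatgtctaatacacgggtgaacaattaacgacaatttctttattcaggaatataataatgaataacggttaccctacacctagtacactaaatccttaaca

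Each library's deposited values summed to between 578473 and 622006 FPKM under continuous light and to between 569534 and 587307 FPKM under long days. The number of reads behind them is not stated in the labels or the files. The labelled tissue was checked by markers. The leaf genes RBCS1A, LHCB5 and LHCB2.1 had medians of 3620, 3177 and 635 FPKM in continuous light, against 2426, 1110 and 266 FPKM in long days. The RBCS1A row fell to 8.86 FPKM in the long-day library at 41 h. All 6 root markers were detected, and the flower genes AP3 and PI stayed at or under 0.890 FPKM. Seed storage genes were high for seedlings, with a summed level of CRA1, SESA1 and CRU3 of 448 to 2556 FPKM in continuous light and 188 to 2289 FPKM in long days. In long days the first and the second day also stood apart over all loci, with a median Spearman correlation of 0.823 between libraries of different days and 0.857 within a day, whereas these medians were 0.862 and 0.866 in continuous light. No time point has a replicate. The labels name no separate cultures, so p-values measure only the scatter of these libraries around a curve or a group mean. In whole seedlings, fewer cells that express a gene and less RNA per cell cannot be told apart.

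All 3 CBF transcripts were scarce in these warm-grown seedlings. CBF3 reached the highest single values in both regimes, although the CBF2 median was higher in each. In continuous light CBF3 had a lowest value of 0.0481 FPKM at 20 h, a median of 0.571 and a highest of 3.10 at 11 h, against a lowest of 0, a median of 0.411 and a highest of 2.35 at 35 h in long days. CBF2 spanned 0.0813 to 1.72 FPKM (median 0.598) in continuous light and 0.267 to 1.68 FPKM (median 0.824) in long days. CBF1 spanned 0 to 1.08 FPKM (median 0.197) in continuous light and 0 to 1.01 FPKM (median 0.165) in long days. The highs of CBF3 fell in the middle and late day on both days of both regimes. In continuous light it stood at 3.10 FPKM at 11 h and 2.98 FPKM at 32 h. In long days it stood at 1.60 FPKM at 8 h and at 2.14 and 2.35 FPKM at 32 h and 35 h.

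**Figure D1:**
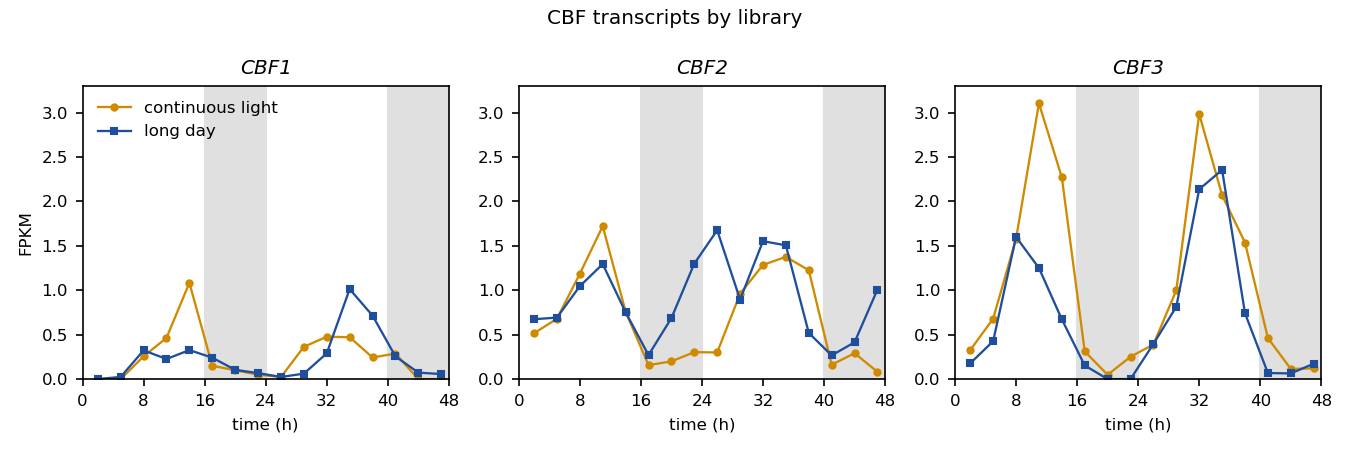
FPKM of CBF1, CBF2 and CBF3 in each library against time, with continuous light in orange circles and long days in blue squares. Grey bands mark the dark hours of long days, which were lit in continuous light. CBF3 peaks at 3.10 and 2.98 FPKM in continuous light and reaches 1.60 and 2.35 FPKM in long days, with lows in every grey band.

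By their annotated transcripts, COR15A, COR47, RD29A, KIN1 and KIN2 were far more abundant per length than the CBF genes in both regimes. The annotated rows of COR15B, and of ERD10 in continuous light, came closer to the CBF genes. These rows leave out transcripts that the authors' assembly built from the reads. In continuous light such a transcript within COR15B had a mean of 61.3 FPKM, and one across COR47 and ERD10 had a mean of 80.2 FPKM. The ERD10 median in continuous light was 1.28 FPKM, and its mean there rests on 114 FPKM at 35 h and 31.2 FPKM at 11 h. By mean FPKM in continuous light the order was KIN2 (288 ± 168, SD over 16 libraries), RD29A (203 ± 159), KIN1 (198 ± 118), COR15A (110 ± 78.6), COR47 (77.2 ± 44.7), ERD10 (10.8 ± 28.5) and COR15B (4.00 ± 2.96). In long days it was RD29A (223 ± 155), KIN1 (165 ± 122), COR47 (102 ± 39.9), KIN2 (87.4 ± 61.6), COR15A (63.0 ± 44.4), ERD10 (60.3 ± 75.0) and COR15B (0.375 ± 0.731). Each mean in these orders differed from the next by less than the larger of both SDs, apart from COR47 and ERD10 in continuous light. Levels were not tested between regimes, since the transcripts of the 2 tables were assembled and merged separately.

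**Figure D2:**
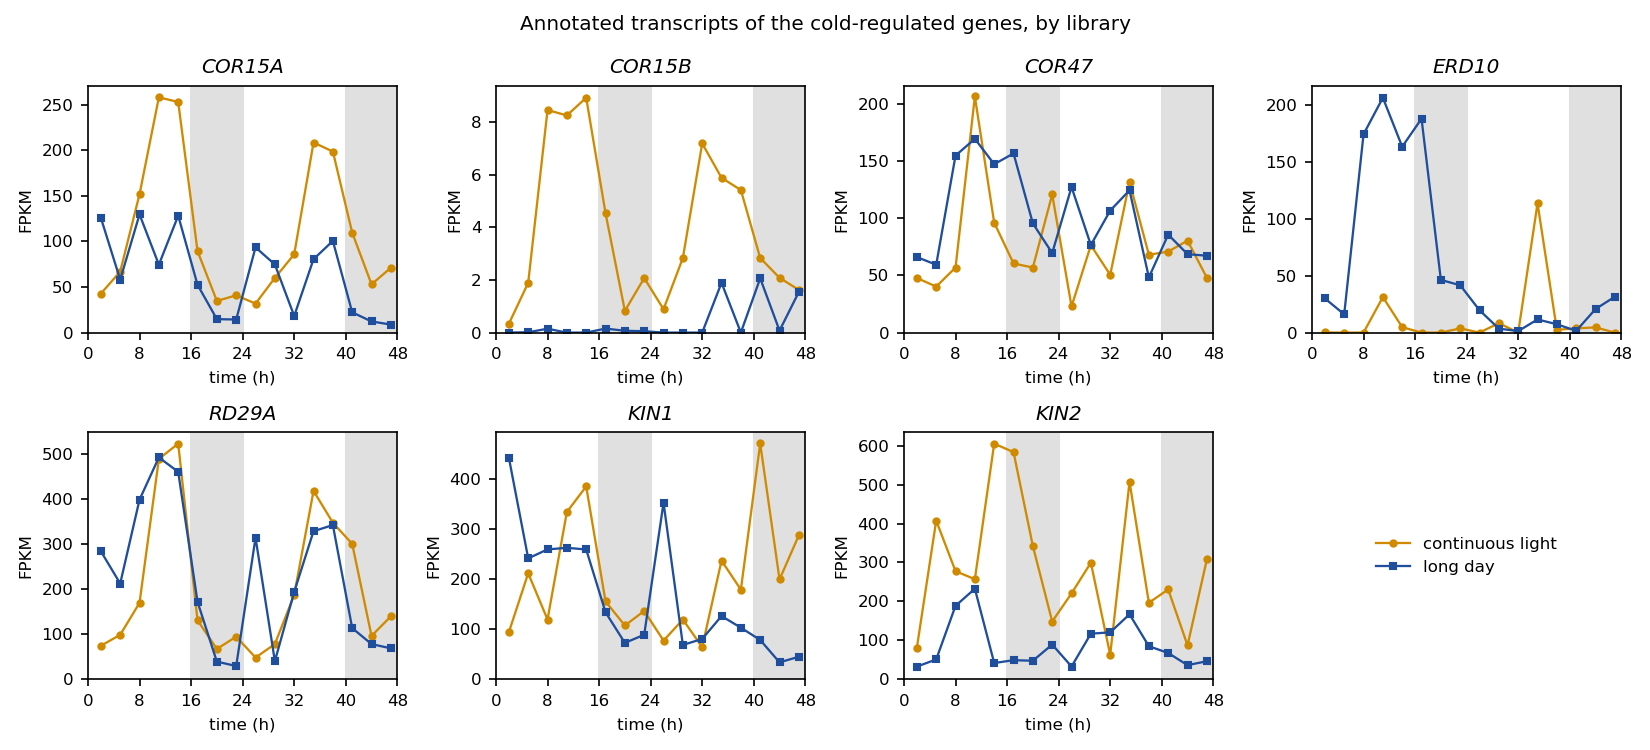
FPKM of the annotated transcripts of each cold-regulated gene in each library against time, with continuous light in orange circles and long days in blue squares; grey bands mark the dark hours of long days. In continuous light COR15A and RD29A form 1 broad hump a day, reaching 258 and 523 FPKM, while in long days both also stand high at 26 h, with 93.4 and 314 FPKM.

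Part of the reads of the tandem pairs was deposited under transcripts that the authors' assembly built from the reads and that carry no locus name. In continuous light, transcripts named by locus held 74.6% of the KIN1 and KIN2 signal, 76.7% of that of COR15A and COR15B, 59.6% of that of COR47 and ERD10 and 99.6% of that of RD29A and RD29B. These shares were 43.7%, 75.1%, 82.1% and 91.1% in long days, and 100% for the CBF genes in both regimes. Single libraries varied far more, from 16.9% to 100% for KIN1 and KIN2 in continuous light and from 25.9% to 84.7% in long days. ERD10 was listed at 0 in 7 of 16 continuous-light libraries, and COR15B in 7 of 16 long-day libraries. Each gene is therefore given with the total of its neighbourhood, which adds FPKM times transcript length in kb over all annotated transcripts of the neighbouring genes and all assembled transcripts that overlap them on the same strand (FPKM × kb, a share of the library's fragments). These totals were chosen after the data were seen. RD29B, which is not among the genes described here, held a median of 51.9% of its total with RD29A in continuous light. In long days this median was 58.7%. Assembled transcripts held medians of 0.384% and 1.56% of that total in continuous light and long days. A total cannot say which copy a change belongs to, and some assembled transcripts reach beyond the pair. For COR47 and ERD10 in continuous light this was 1 transcript, with 39.3% of the signal (up to 66.2% in 1 library). It starts at chr1:7084393, just before the COR47 start, and ends where ERD10 ends, so it hardly leaves the pair. In long days those of COR47 and ERD10 start far outside, at chr1:6985539 and chr1:6990755, and held 7.31% (up to 61.3%). Transcripts reaching beyond the pair in long days also held 17.4% of the signal of COR15A and COR15B (up to 76.4% in 1 library). They held 2.88% of that of RD29A and RD29B and 1.36% of that of KIN1 and KIN2.

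**Figure D3:**
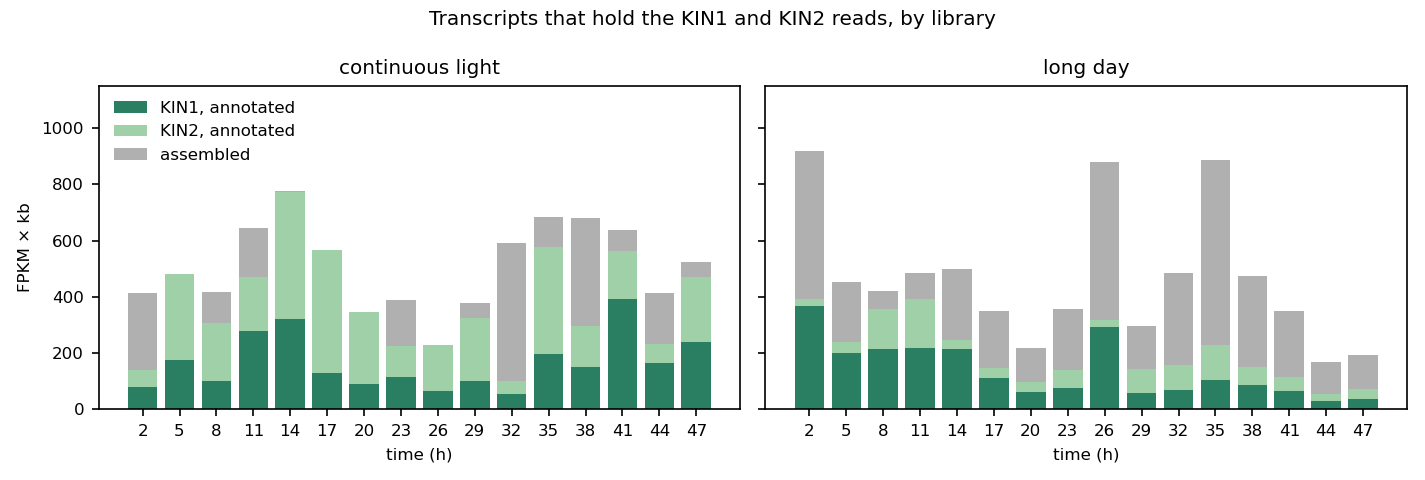
Stacked bars give, for each library in time order, the FPKM × kb in annotated KIN1 transcripts, annotated KIN2 transcripts and assembled transcripts that overlap them, with continuous light on the left and long days on the right. The assembled share runs from 0% to 83.1% in continuous light and from 15.3% to 74.1% in long days.

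In continuous light, COR15A, COR15B, RD29A and CBF3 followed a 24 h curve, with fitted peaks at 10.2 to 12.8 h after subjective dawn. A cosine and a sine term of 24 h were fitted to log2(FPKM + 1) with limma, over all loci with a mean of at least 1 FPKM, with Benjamini-Hochberg adjustment across those loci. Folds are peak to trough of the fitted curve on this scale and understate the change of scarce transcripts. Of the 10 genes, 8 passed the filter on low values and 4 were called rhythmic at an adjusted p under 0.05, beside 23% of all 17766 loci tested. The median amplitude was 1.01 (log2) over those 8 and 0.17 over all loci tested.

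CBF3, the factor gene, rose and fell 3.41-fold, with an amplitude of 0.89 ± 0.09 (log2, SE) and a fitted peak at 10.2 ± 0.377 h (adjusted p = 1.37e-05). COR15A, whose product is a chloroplast stroma protein that protects membranes on freezing, had a range of 31.8 to 258 FPKM with a median of 78.4. Its curve had a 5.86-fold span and peaked at 12.1 ± 0.419 h (amplitude 1.28 ± 0.14, adjusted p = 3.65e-05). Its tandem copy COR15B ranged from 0.334 to 8.92 FPKM (median 2.83) in its annotated row. That row had a 4.83-fold span, with a peak at 11.7 ± 0.499 h (adjusted p = 1.87e-04). RD29A, a gene used widely as a reporter of cold, drought and ABA signals, ranged from 47.8 to 523 FPKM (median 135). Its span was the largest among the 4 called, 6.32-fold, with a peak at 12.8 ± 0.512 h (adjusted p = 2.38e-04). These 4 calls held without any 1 of the 16 libraries.

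The dehydrin genes and the KIN genes were not called from their own rows in continuous light. COR47 and ERD10 encode acidic dehydrins, which bind membranes and proteins in drying cells. COR47 ranged from 22.9 to 207 FPKM (median 64.3; adjusted p = 0.168, and 0.0393 without the 23 h library), and ERD10 from 0 to 114 FPKM (median 1.28; adjusted p = 0.238). KIN1 and KIN2 encode small hydrophilic proteins and are induced by cold and ABA. KIN1 ranged from 64.0 to 471 FPKM (median 167; adjusted p = 0.125) and KIN2 from 62.5 to 605 FPKM (median 267; adjusted p = 0.516).

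When the reads of each neighbourhood were added up, all 5 totals were called rhythmic in continuous light, and each call held without any 1 library. No such totals were formed at other loci, so counts of called totals, here and below, have no share of all loci beside them. The CBF total ranged from 0.248 to 6.58 FPKM × kb (median 1.38) and peaked at 10.1 ± 0.316 h with a 5.25-fold span (adjusted p = 2.69e-06). That of COR15A and COR15B ranged from 57.9 to 531 (median 166) and peaked at 11.9 ± 0.306 h with a 6.84-fold span (adjusted p = 2.04e-06). The total of COR47 and ERD10 ranged from 145 to 648 (median 298) and had a 2.20-fold span with a peak at 12.5 ± 0.754 h (adjusted p = 0.00540). For KIN1 and KIN2 the range was 229 to 776 (median 502), the span 2.02-fold and the peak at 13.2 ± 0.746 h (adjusted p = 0.00502). RD29A and RD29B together ranged from 364 to 2420 (median 685), with a 3.95-fold span and a peak at 13.2 ± 0.751 h (adjusted p = 0.00524). The fitted peak of the CBF total thus came before that of each COR total, and differences between peak times were not tested. With the 8 times of day as a factor in place of the curve, the KIN and RD29 totals were no longer called (adjusted p = 0.146 and 0.0860).

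CBF1 and CBF2 had means under 1 FPKM in both regimes, and CBF3 and COR15B in long days, so they did not enter those fits. Without the filter, where 26363 loci were tested in continuous light and 27264 in long days and 14.3% and 14.7% of them were called, CBF3 in long days was rhythmic with a 2.80-fold span and a peak at 9.29 ± 0.416 h (adjusted p = 1.40e-04). CBF1 had a 1.56-fold span in continuous light with a peak at 11.8 ± 0.772 h, against a 1.54-fold span and a peak at 12.5 ± 0.718 h in long days (adjusted p = 0.00963 and 0.00740). CBF2 had a 2.17-fold span with a peak at 9.43 ± 0.422 h in continuous light (adjusted p = 6.72e-05) and was not called in long days (adjusted p = 0.121). In long days CBF2 did not stay low through the night. It stood at 0.270 FPKM at 17 h, 0.686 at 20 h, 1.30 at 23 h and 1.68 at 26 h, and again at 0.267 FPKM at 41 h, 0.414 at 44 h and 1.01 at 47 h. In continuous light its values at the 6 night hours were 0.0813 to 0.303 FPKM. The difference of the CBF2 curves between regimes had an adjusted p of 0.0837 in the fit without the filter.

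In long days RD29A and KIN2 were called rhythmic among 6 genes tested, beside 24.5% of 18016 loci. RD29A ranged from 28.99 to 492 FPKM (median 203) and had a 5.92-fold span with a peak at 10.4 ± 1.03 h (adjusted p = 0.0376). This call was lost when the library at 5, 8, 11, 14, 20, 23, 35, 38, 41, 44 or 47 h was left out (adjusted p = 0.0506 to 0.0934) and in the fit without the filter (adjusted p = 0.0559). KIN2 ranged from 32.1 to 232 FPKM (median 58.8) and had a 3.60-fold span with a peak at 9.82 ± 0.932 h (adjusted p = 0.0222). Its call was lost without the library at 8 h or 11 h (adjusted p = 0.0520 and 0.0547). These 2 libraries held its highest values, 188 and 232 FPKM, and also the lowest assembled shares of the KIN1 and KIN2 signal, 15.3% and 19.4%, against 47.6% to 74.1% in the other 14. The part of this split in the KIN2 call was not tested, and the KIN total was not called. COR15A ranged from 8.79 to 130 FPKM (median 66.2), and its 4.82-fold curve had an adjusted p of 0.0859, or 0.0455 without the 2 h library and 0.0133 without the 32 h library. COR47 had an adjusted p of 0.293, and 0.0345 without the 38 h library. KIN1 and ERD10 had adjusted p-values of 0.281 and 0.845.

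Of the totals, those of the CBF genes and of COR15A and COR15B were called rhythmic in long days. The CBF total peaked at 9.02 ± 0.650 h with a 2.88-fold span (adjusted p = 0.00251), and the COR15 total at 9.10 ± 0.851 h with a 6.39-fold span (adjusted p = 0.0137). The totals of COR47 and ERD10, of KIN1 and KIN2 and of RD29A and RD29B were not called (adjusted p = 0.113, 0.167 and 0.194). With time of day as a factor the KIN total was called (adjusted p = 0.0161), and so was COR15A alone (adjusted p = 0.0443).

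**Figure D4:**
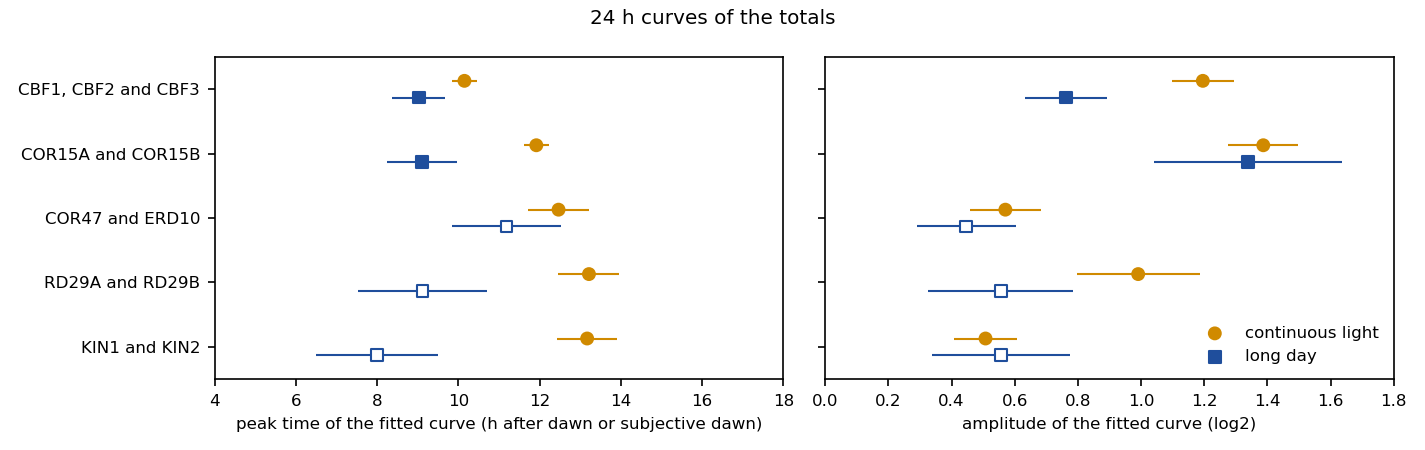
Fitted peak time in h after dawn or subjective dawn (left) and amplitude on the log2 scale (right) of the 24 h curve for each neighbourhood total, with continuous light in orange circles above long days in blue squares. Bars are standard errors and filled symbols have an adjusted p under 0.05. In continuous light the CBF total peaks at 10.1 h and the COR totals at 11.9 to 13.2 h; in long days 2 of the 5 totals are called.

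Whether the curves differed between regimes was tested as an interaction over all 32 libraries. COR15B was the 1 gene called among 8 tested, beside 4.83% of 18515 loci (adjusted p = 0.0280). Its row was at 0.334 to 8.92 FPKM in continuous light and at 0 to 2.06 FPKM in long days. In both regimes assembled transcripts held further signal there. In long days one that runs over both COR15B and COR15A was above 0 in all 16 libraries. In continuous light one that lies within COR15B alone was above 0 in all 16 libraries, with a mean of 61.3 FPKM. Added up, COR15A and COR15B had an adjusted p of 0.158. The call was also lost without the long-day 47 h library (adjusted p = 0.0650), with the sampling hour as a replicate block (adjusted p = 0.0674) and with a pseudocount of 0.1 FPKM (adjusted p = 0.247). The other 4 totals had adjusted p-values of 0.138 to 0.810. KIN1 was the other gene with an unadjusted p under 0.05, and its adjusted p was 0.205.

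COR15A, RD29A and KIN1 were lower in the dark hours of long days. The 6 libraries at night hours were set against the other 10 in each regime. In long days these were 3 of the 6 genes tested, while 11.7% of loci were called in all, 9.57% higher and 2.11% lower. COR15A was at 8.79 to 52.4 FPKM at night (median 14.5), against 18.2 to 130 FPKM in the day (median 87.0), and fell by 2.12 ± 0.40 on the log2 scale (adjusted p = 0.00377). RD29A was at 28.99 to 171 FPKM at night (median 72.9), against 39.7 to 492 FPKM in the day (median 321), with a log2 difference of -1.89 ± 0.49 (adjusted p = 0.0203, and 0.0557 and 0.0520 without the 20 h and the 23 h library). KIN1 was at 33.5 to 134 FPKM at night (median 75.2), against 68.1 to 442 FPKM in the day (median 250.1), with a log2 difference of -1.43 ± 0.42 (adjusted p = 0.0358). The KIN1 call was lost without the library at 2, 5, 8, 11, 14, 20, 26, 41, 44 or 47 h (adjusted p = 0.0503 to 0.0991) and without the filter (adjusted p = 0.0533). In these 3 genes the ranges of night and day overlapped. For COR15A the day minimum was that of the 32 h library, where assembled transcripts held 77.8% of the COR15A and COR15B signal. The total of both, chosen after the data were seen, had a night maximum of 112 FPKM × kb, against a day minimum of 122. At 32 h, 76.4% of that total lay in transcripts that reach beyond the pair.

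COR47, ERD10 and KIN2 were not called in the night contrast of long days (log2 differences of -0.20 ± 0.28, 0.29 ± 1.06 and -0.66 ± 0.43). CBF3 was at 0 to 0.173 FPKM at night there, against 0.178 to 2.35 FPKM in the day. Its night maximum at 47 h and its day minimum at 2 h nearly met, at values with no known counting error. In the fit without the filter, 6.76% of loci were called and 1.2% called lower. There CBF3 had a log2 difference of -0.85 ± 0.20 (adjusted p = 0.0193). Among the totals, COR15A and COR15B were lower at night by the widest margin, a log2 difference of -2.27 ± 0.31 (adjusted p = 3.56e-04). KIN1 and KIN2 together had -1.06 ± 0.26 (adjusted p = 0.0140), RD29A and RD29B -1.05 ± 0.28 (adjusted p = 0.0244) and the CBF genes -0.93 ± 0.24 (adjusted p = 0.0200). The CBF call was lost without the 44 h library (adjusted p = 0.0542), and the RD29 call without the 20, 44 or 47 h library (adjusted p = 0.0534 to 0.0709) and under quantile normalization (-0.53, adjusted p = 0.357). COR47 and ERD10 together had -0.44 ± 0.25 (adjusted p = 0.289).

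In the subjective night of continuous light, CBF3 was the 1 gene called among 8, lower by a log2 difference of -0.99 ± 0.24 (adjusted p = 0.0305), beside 3.75% of loci called and 1.08% called lower. It was at 0.0481 to 0.463 FPKM in the subjective night (median 0.186), against 0.326 to 3.10 FPKM at the other hours (median 1.56), and these ranges overlapped. The call was lost without the library at 8, 17, 20, 23, 35, 44 or 47 h (adjusted p = 0.0505 to 0.0737). The CBF total gave -1.38 ± 0.30 (adjusted p = 0.0192, and 0.0518 without the 44 h library), and CBF2 in the fit without the filter, where 2.05% of loci were called and 0.614% called lower, gave -0.71 ± 0.13 (adjusted p = 0.0117). None of the 4 COR totals was called there (log2 differences of -0.86 to -0.10, adjusted p = 0.394 to 0.886). The difference of the night contrast between regimes was called in 0 of 8 genes with limma, beside 3.61% of loci, and 2 genes, COR15A and KIN1, had an unadjusted p under 0.05 (adjusted p = 0.294 and 0.0954). It is therefore not shown that night lowered the COR genes more in long days than in continuous light.

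The long-day profiles had a feature that a single 24 h curve cannot follow, a high in the first libraries after lights-on. These hours were singled out after the values were seen, and with 1 library at each hour the differences have no replicate check. RD29A was at 314 FPKM at 26 h, against 28.99 FPKM at 23 h, the last dark sample before it, a ratio of 10.5 on the scale of FPKM + 1. COR15A was at 93.4 FPKM at 26 h, against 14.3 FPKM at 23 h (ratio 6.16), and KIN1 at 352 FPKM at 26 h, against 88.6 FPKM at 23 h (ratio 3.94). These were 3 of 6 genes at least 2-fold higher at 26 h, while 5.36% of loci were. All 3 stood high at 2 h of the first long day too, with 284, 126 and 442 FPKM for RD29A, COR15A and KIN1. At 29 h they stood at 39.7, 74.7 and 68.1 FPKM, so COR15A was closer to its 26 h value than RD29A and KIN1 were.

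In continuous light the same hours showed no such high. RD29A was at 47.8 FPKM at 26 h, against 94.1 FPKM at 23 h, COR15A at 31.8 FPKM, against 40.9 FPKM, and KIN1 at 76.9 FPKM, against 136 FPKM. None of the 8 genes was at least 2-fold higher at 26 h, while 3.09% of loci were. The totals showed the same in long days. That of COR15A and COR15B was 212 FPKM × kb at 26 h, against 27.8 at 23 h, that of RD29A and RD29B 2252, against 838, and that of KIN1 and KIN2 879, against 355. COR47 and ERD10 together stood at 403 at 26 h, against 229 at 23 h, and the CBF total at 2.23, against 1.36. KIN2 and ERD10 were at least 2-fold lower from their own rows in long days, as were 6.79% of loci, with 32.3 and 19.6 FPKM at 26 h, against 88.8 and 41.7 FPKM at 23 h. In continuous light COR47 and ERD10 were, as were 3.83% of loci, with 22.9 and 0 FPKM at 26 h, against 121 and 3.69 FPKM at 23 h. CBF3 was at 0.395 FPKM at 26 h and 0 at 23 h, well below its highs of the afternoon.

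**Figure D5:**
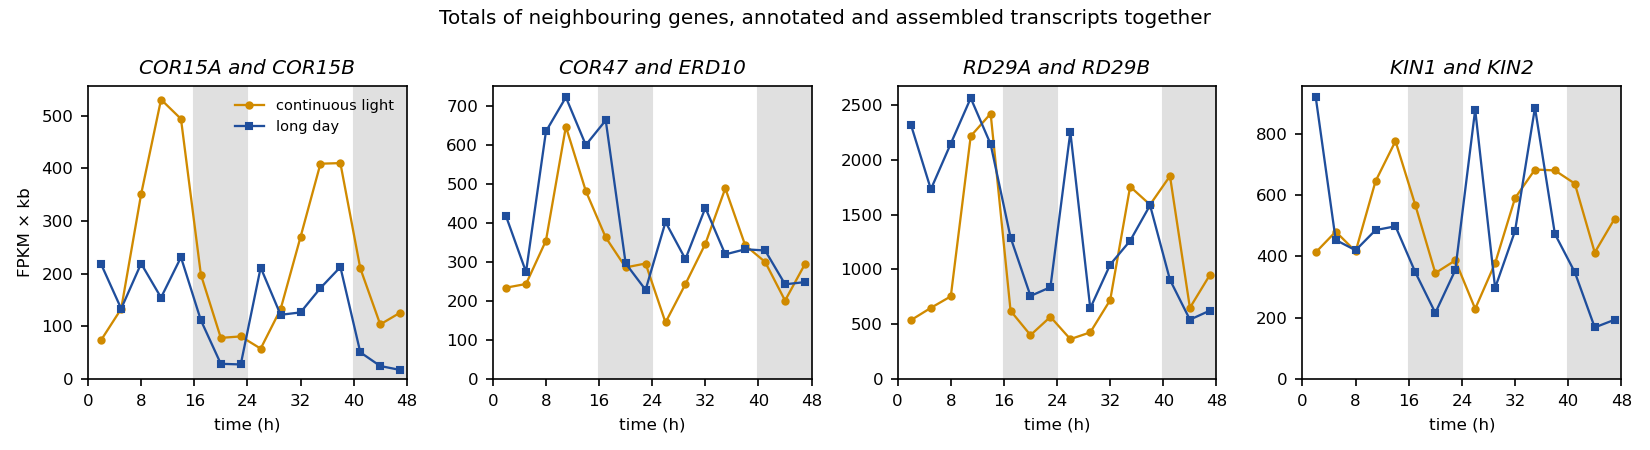
FPKM × kb of each neighbourhood total in each library against time, with continuous light in orange circles and long days in blue squares; grey bands mark the dark hours of long days. In long days the totals of COR15A and COR15B, RD29A and RD29B, and KIN1 and KIN2 stand at 212, 2252 and 879 at 26 h, above the samples at 23 h and 29 h.

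Between the second and the first day at matched hours, no gene was called in continuous light, 0 of 8 with limma (0 at an unadjusted p under 0.05) beside 17.7% of loci. In long days ERD10 fell, the 1 call among 6 genes, beside 8.96% of loci called and 6.24% called lower. It was at 1.32 to 31.6 FPKM on the second day (median 9.44), against 16.0 to 207 FPKM on the first (median 105.0), a log2 difference of -3.11 ± 0.69 (adjusted p = 0.0108). COR47 and ERD10 together had -0.45 ± 0.19 (adjusted p = 0.184). The assembled share of their signal was 3.83% to 62.8% on the second day, while on the first day it was 51.6% and 40.4% at 2 h and 5 h and at most 0.117% from 8 h to 23 h. ERD10 itself was at 30.1 and 16.0 FPKM at 2 h and 5 h of the first day and at 41.7 to 207 FPKM from 8 h to 23 h. KIN1 had -1.13 ± 0.40 (adjusted p = 0.0999), and was called without the 26 h library (adjusted p = 0.00613) and with time of day as a replicate block (adjusted p = 0.00253). On the second day in continuous light, 2 of the 3 seed storage genes were called higher. The summed level of all 3 there had a median of 1063.5 FPKM, against 671 FPKM on the first day. In long days 2 of the 3 fell, as ERD10 did. The summed seed markers were at 188 to 1037 FPKM on the second day, against 779 to 2289 FPKM on the first, and CRA1 and CRU3 had log2 differences of -1.79 and -1.77 (adjusted p = 0.00181 and 0.0102), while SESA1 had -2.13 (adjusted p = 0.0543). Of 12 ABA-responsive genes, RD29B and RAB18 were called, with -1.49 and -1.28 (adjusted p = 0.00119 and 0.0150). The part of the assembled share and of these genes in the ERD10 result was not tested.

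Genes that act on the CBF genes were compared as lists. Of 13 tested cold-signalling genes, 3 were rhythmic in continuous light, a share close to the 23% of all loci. They were EIN3, CAMTA3 and SOC1, with amplitudes of 0.28, 0.20 and 0.39 (log2; adjusted p = 1.33e-04, 0.0139 and 0.00872) and peaks at 9.94 h, 10.8 h and 10.1 h. CAMTA3 binds and activates CBF promoters, and EIN3 and SOC1 are known repressors of CBF genes. In long days 2 were, beside 24.5% of all loci, the kinase gene OST1 and the brassinosteroid factor gene BZR1, both higher at night by 0.88 and 0.63 (log2; adjusted p = 0.00351 and 2.75e-04). The median amplitude of this list was 0.20 in both regimes, against 0.17 over all loci in continuous light and 0.20 over all loci in long days. The induction factor gene ICE1 spanned 20.1 to 24.2 FPKM in continuous light and 9.27 to 33.9 FPKM in long days, and was called in neither regime.

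Clock and light-input genes were rhythmic in 12 of 14 in continuous light and in 11 of 14 in long days, beside 23% and 24.5% of all loci, with median amplitudes of 1.04 and 1.28. LHY, a morning MYB gene, peaked at 1.66 h under continuous light, against 1.71 h in long days, and GI, a regulator of evening outputs, at 10.4 h, against 9.24 h. PIF4, a known repressor of CBF genes in the phytochrome pathway, peaked at 7.67 h under continuous light, against 8.55 h in long days. For comparison, the CBF total peaked at 10.1 h under continuous light, against 9.02 h in long days.

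Of 6 relatives of the CBF genes, only 2 passed the filter and were tested. CBF4, DDF1, DDF2 and DREB2B were under the filter in both regimes, with maxima of 0.385, 0.0984, 0 and 2.35 FPKM in continuous light and 0.778, 0.0938, 0.0563 and 1.71 FPKM in long days. DREB2A and RAP2.1, the 2 tested, were not rhythmic in either regime.

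Other cold-regulated genes were rhythmic in 10 of 18 tested in continuous light and in 8 of 19 in long days, beside 23% and 24.5% of all loci, with a median amplitude of 0.51 in continuous light and 0.50 in long days. COR413IM1, which encodes a protein of the inner chloroplast envelope, had its peak at 11.2 h under continuous light, against 10.4 h in long days, and its relative COR413-PM1 at 12.7 h, against 9.07 h. BAM3 and ELIP2, also called in both regimes, peaked at other times. BAM3 peaked at 18.1 h under continuous light, against 22.1 h in long days, and ELIP2 at 0.520 h, against 0.919 h. COR27, a night regulator of the clock, had its peak at 13.5 h under continuous light, against 16.3 h in long days, and its difference between regimes was called (adjusted p = 0.00878). At night in long days 4 of the 19 fell and 0 rose, beside 2.11% of all loci called lower and 9.57% called higher. COR413-PM1 and COR413IM1 both had a log2 difference of -1.23 (adjusted p = 0.00284 and 0.0220), LTI30, a dehydrin gene, had -0.92 (adjusted p = 0.0319) and P5CS2, a proline synthesis gene, -0.65 (adjusted p = 0.0165). Of 12 ABA-responsive genes, 5 were rhythmic in continuous light and 5 in long days, again beside 23% and 24.5% of all loci. RD20 and NCED3 were called in both. RD20 peaked at 24.0 h under continuous light, against 3.68 h in long days, and NCED3 at 11.2 h, against 5.59 h. RAB18 peaked at 13.2 h in continuous light, near the RD29A peak of 12.8 h, and was not called in long days. NCED3, which encodes the rate-limiting enzyme of ABA synthesis, was lower at night in long days by a log2 difference of -1.31 (adjusted p = 0.00530).

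Across all 32 libraries, with each regime's mean taken off, the profiles of COR15A and RD29A were alike (Pearson r = 0.82), and those of KIN1 had r = 0.73 with COR15A and 0.71 with RD29A. COR47 was most like ERD10 among the members (r = 0.69). KIN2 had r of 0.10 to 0.27 with each of the other 5 genes, KIN1 included (0.22). These values share the time of day and the library, and assembled transcripts run over both neighbours of a pair, so they are descriptions only. Among 17263 other loci, the profiles closest to COR15A were those of AT2G35070 (r = 0.84), AT1G27930 (0.84) and RD29A itself. Those closest to RD29A were SWEET4 (0.85), COR413-PM1 (0.85) and AT1G17940 (0.84), and those closest to KIN1 were AAP1 (0.91), LACS8 (0.89) and HAI2 (0.87). The closest to KIN2 was HHP5 with 0.63, to COR47 AT1G09794 with 0.71 and to ERD10 PMH1 with 0.70.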

How the data were processed

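RNA sequencing libraries of whole seedlings, 16 in continuous light and 16 in long days, were read from 1 deposited table per regime. The authors deposited FPKM per transcript and library, per the file headers, for annotated transcripts and for transcripts assembled and merged within each table. Per the submitters' processing notes the genome build was TAIR10. Aligner, quantifier, strand and read depth are not stated in the labels or the files. Without strand, reads of overlapping antisense genes cannot be told apart.

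Annotated transcripts were summed per locus in Python 3.11.15 with pandas 2.3.3. Loci with a mean of at least 1 FPKM were fitted as log2(FPKM + 1) by the lmFit and eBayes functions of limma 3.58.1 (trend option; R 4.3.3), with Benjamini-Hochberg adjustment over all tested loci. The fits were a 24 h cosine and sine, night hours against other hours, and second day against first day with the 24 h terms as covariates. Differences between regimes were interaction terms over 32 libraries. Errors of fits are standard errors. The fits were tested on simulated data.

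The members, the gene lists and the comparisons were chosen with earlier results of these data known. All 10 members are named, and from each list up to 5 genes past the threshold per comparison, not always those with the largest amplitude. Some listed genes that were not called or not tested are named as such. Alternatives were another pseudocount, no filter, equal library medians, quantile normalization, added assembled transcripts, time of day as a factor, a replicate block and each library left out. The neighbourhood totals were added after seeing the data. Sequences were read from the TAIR10.1 RefSeq genome, where 99.95% of nuclear loci had the same ends as in each table. CAMTA5 and COR28 were not found under these symbols in RefSeq and were taken by locus.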

Additional observations from a re-analysis of the deposited data

Results flagged for a closer look

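COR15B was the 1 gene whose 24 h curve differed between continuous light and long days by the test of the difference itself (adjusted p = 0.0280). Its own row stood at a mean of 4.00 FPKM in continuous light, against 0.375 FPKM in long days, while the total of COR15A and COR15B had an adjusted p of 0.158 for the same difference. In continuous light an assembled transcript within COR15B, not counted in its row, had a mean of 61.3 FPKM. The part of the assembled transcripts in this call was not tested.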

How the results depend on the processing

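Of the values of single genes and totals that were counted, 381 of 392 under other settings kept their direction and their side of the threshold. With 1 library left out, 1557 of 1600 did so. For rhythm fits only the side of the threshold was compared, as an amplitude has no sign. The count left out the second-day values in continuous light and most of those in long days. It also left out COR47 and KIN2 in the night contrast of continuous light and ERD10 in that of long days. The CBF3 night contrast difference, -0.14 and not called, turned to 0.26 with a pseudocount of 0.1 FPKM (adjusted p = 0.911); the cause was not tested.

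The count of rhythmic loci in continuous light was 808 with time of day as a factor, against 4087, and in long days 2870 with equal library medians and 2920 with quantile normalization, against 4408. The night contrast gave 430 loci in continuous light with quantile normalization, against 667, and 1276 and 1282 in long days with equal medians and quantile normalization, against 2105. These scalings also moved the share of higher calls, which was 71.2% as deposited, 55.6% with equal medians and 45.6% with quantile normalization in continuous light, and 81.9%, 60.4% and 61.8% in long days. For the night contrast difference these shares were 23.02%, 33.9% and 30.1%, and for the second day in long days 30.3%, 48.8% and 51.1%. Adding assembled transcripts at the locus alone gave 1388 loci for the rhythm difference, against 894, and 1061 for the night contrast difference, against 669. A pseudocount of 0.1 left 0 members called for the rhythm difference, and no filter gave 2 in the night contrast of continuous light.

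The sampling hour matches libraries of both regimes, but nothing says that they share a culture. With it as a replicate block the rhythm difference was called for 581 loci and 0 members, and the night contrast difference for 1072 loci (35.8% higher) and 0 members. With time of day as a replicate block the second day was called for 2616 loci and 0 members in continuous light, and for 2306 loci and 2 members (ERD10 and KIN1) in long days. It changed no other call of a member.

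With 1 library left out, rhythmic members numbered 4 to 5 under continuous light, against 0 to 3 in long days. The rhythm difference called 0 to 1 members. The night contrast called 0 to 1 members and 287 to 851 loci in continuous light, and 1 to 3 members and 1260 to 2294 loci in long days, and its difference 422 to 838 loci. In long days the second day called 1 to 2 members. Without a read depth, values near 0 FPKM such as those of the CBF genes have no known counting error.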
